A study of Homo sapiens with 6 samples.

Results

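The receptor-type protein tyrosine phosphatases (PTPs) examined here are the 10 genes PTPRF, PTPRS, PTPRU, PTPRM, PTPRK, PTPRC, PTPRJ, PTPRA, PTPRE and PTPRG, taken by gene symbol from the 58735 genes of a read-count table. All 10 were found, and all 10 had enough counts to be tested. RNA of Meg-01, an established human megakaryoblastic cell line, was sequenced in 3 libraries of untreated control cells and in 3 libraries of cells given 500 µM sodium propionate (C3), a short-chain fatty acid of gut bacteria. The labels state 48 h for the C3 libraries and no time for the control libraries, whereas the methods name RNA extraction after 24 h and 48 h. The legend of the RNAseq plot describes the libraries of a group as technical replicates. The p-values therefore measure the spread between these libraries, which need not include that between cultures.

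Receptor-type PTPs span the plasma membrane and remove phosphate from tyrosines of proteins inside the cell, in opposition to tyrosine kinases. Their outer parts resemble adhesion molecules or bind ligands of the matrix and of neighbouring cells, and their inner part usually carries a pair of phosphatase domains. In blood cells they are best known for setting the activity of Src family kinases. PTPRC (CD45) marks nucleated blood cells and is lacking on platelets, whereas PTPRJ (CD148) is the major receptor-type PTP of platelets.

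Library totals were 16159449 to 22821722 counts, with TMM factors of 0.966 to 1.04. Control replicate 3 and C3 replicate 1 stood apart from their groups on the second principal component, which held 17.4% of the variance. In bulk RNA, more cells of a type with a gene and more RNA of it per cell cannot be told apart.

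PTPRU, PTPRF and PTPRS were higher after C3 treatment. The rise was 1.66-fold for PTPRU, 1.45-fold for PTPRF and 1.41-fold for PTPRS. Calls rest on edgeR's quasi-likelihood test across 15078 genes, with gates of 0.01 for the adjusted p-value and 1.3 for the fold. By this rule 3 of the 10 members were higher and 0 lower, where 5.05% of all tested genes were called higher and 1.47% lower. Before adjustment, 5 members were higher and 0 lower at p below 0.05, where 16.8% of all tested genes were higher and 15.3% lower, and DESeq2 and limma-voom also called 0 lower. The median log2 fold change was 0.31 over the members and 0.0021 over all tested genes. Every C3 library exceeded every control library in 6 members, against 17.5% of all tested genes, and the reverse held in 0 members, against 16.9%. Without control replicate 3, the log2 fold changes were 0.62 for PTPRU, 0.44 for PTPRF and 0.42 for PTPRS, and without C3 replicate 1 they were 0.69, 0.49 and 0.49, with all 3 calls kept.

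**Figure D1:**
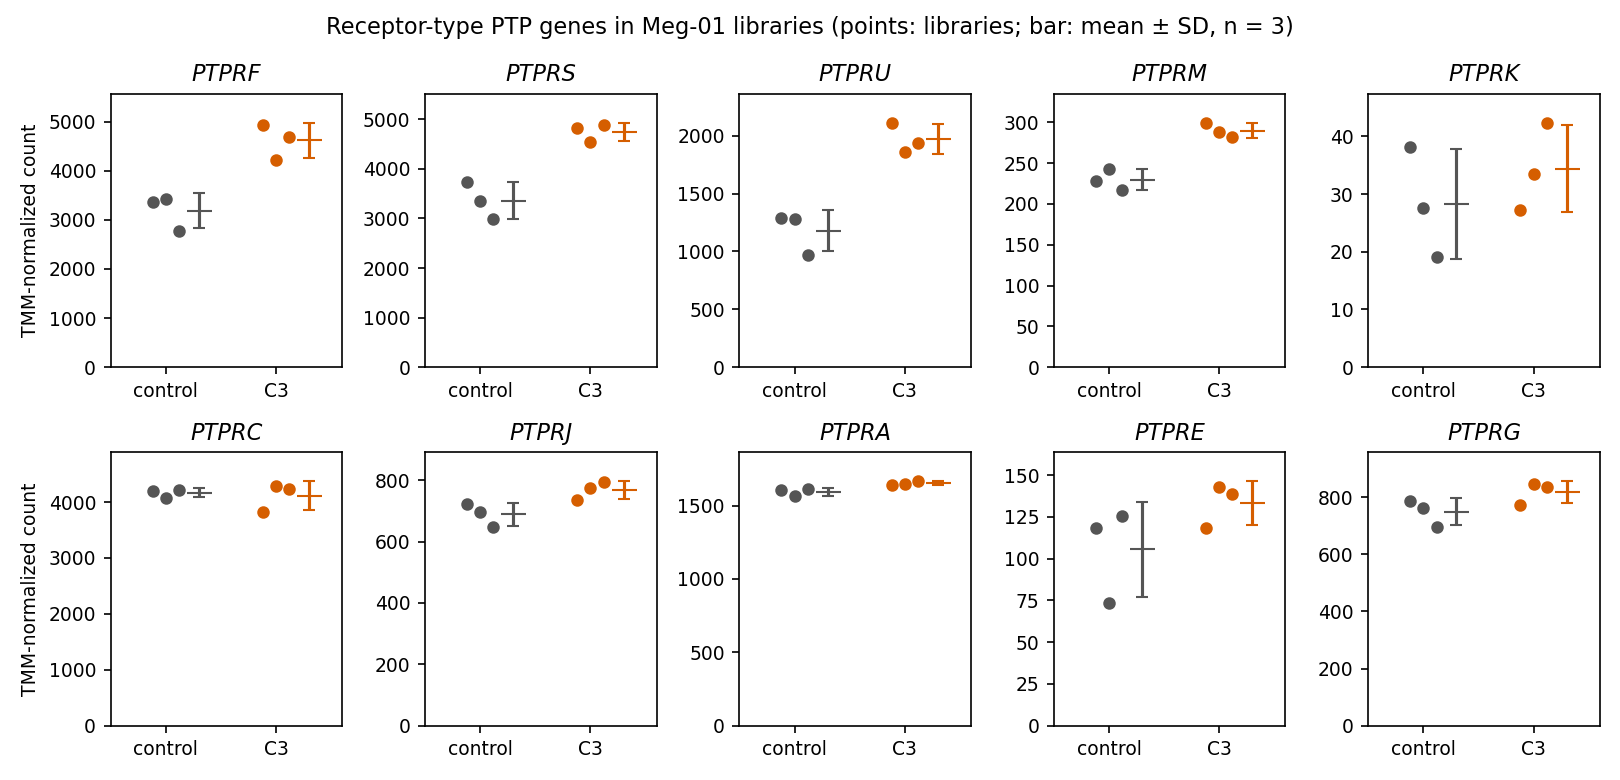
TMM-normalized counts (vertical axes, each from 0) of the 10 receptor-type PTP genes in the control and C3 libraries. Points are libraries, and the bars give the mean ± SD of 3. The groups are far apart for PTPRF, PTPRS and PTPRU and overlap for PTPRC, PTPRE, PTPRK and PTPRG.

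The promoter sequences of the 3 genes that rose are shown beside that of PTPRC, whose counts were high and overlapped between the groups. They come from RefSeq on GRCh38.p14 and hold the 250 bases before and the 50 bases after a gene's annotated start, 5′ to 3′ on the gene's strand. PTPRF is read from chr1:43530633-43530932 (+), PTPRS from chr19:5340763-5341062 (-), PTPRU from chr1:29236272-29236571 (+) and PTPRC from chr1:198638790-198639089 (+). The windows of PTPRF and PTPRC lie wholly inside the gene spans given below, which begin at 43525187 and 198638457. Sequence before those outer starts is not covered. Capitals mark the GC box GGGCGG on either strand (CCGCCC on the other), with overlapping matches run together.
PTPRF: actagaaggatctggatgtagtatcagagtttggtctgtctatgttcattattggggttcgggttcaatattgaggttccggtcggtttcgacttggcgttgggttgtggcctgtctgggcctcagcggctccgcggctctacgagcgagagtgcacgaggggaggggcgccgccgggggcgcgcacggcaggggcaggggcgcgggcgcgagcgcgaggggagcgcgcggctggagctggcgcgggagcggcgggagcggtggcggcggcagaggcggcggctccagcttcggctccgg
PTPRS: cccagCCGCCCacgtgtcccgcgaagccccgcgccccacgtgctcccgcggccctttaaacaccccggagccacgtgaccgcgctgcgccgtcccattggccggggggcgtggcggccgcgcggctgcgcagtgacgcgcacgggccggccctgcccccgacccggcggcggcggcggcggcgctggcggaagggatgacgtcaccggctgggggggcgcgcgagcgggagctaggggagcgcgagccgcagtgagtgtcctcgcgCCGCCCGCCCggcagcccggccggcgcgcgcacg
PTPRU: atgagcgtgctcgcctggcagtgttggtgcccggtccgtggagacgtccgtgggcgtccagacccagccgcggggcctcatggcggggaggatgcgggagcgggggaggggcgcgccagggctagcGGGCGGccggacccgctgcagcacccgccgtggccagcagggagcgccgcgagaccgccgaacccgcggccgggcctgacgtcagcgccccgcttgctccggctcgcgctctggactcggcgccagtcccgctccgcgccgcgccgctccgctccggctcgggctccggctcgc
PTPRC: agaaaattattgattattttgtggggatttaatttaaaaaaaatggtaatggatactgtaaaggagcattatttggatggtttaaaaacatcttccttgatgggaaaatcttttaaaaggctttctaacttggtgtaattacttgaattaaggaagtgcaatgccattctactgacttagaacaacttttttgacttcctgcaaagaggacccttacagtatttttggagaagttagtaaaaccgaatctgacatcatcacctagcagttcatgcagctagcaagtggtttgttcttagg

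The windows of PTPRF, PTPRS and PTPRU had 68.7%, 81.3% and 78.7% G and C and held 37, 55 and 47 CpG dinucleotides. That of PTPRC had 33.7% G and C and 1 CpG. Over 34796 promoter windows of that length the medians were 58.7% and 14. The GC box was found in 3 places in the PTPRS window, in 1 in that of PTPRU and in 0 in those of PTPRF and PTPRC, and 44.9% of all windows held it. Of the members' 14 windows 6 held it, 1 each of PTPRA, PTPRE, PTPRK, PTPRM, PTPRS and PTPRU, a share near that of all windows. Members that were not called had windows of like composition, at 80.7% G and C for PTPRM, 77.0% for PTPRE, 76.3% for PTPRK, 71.7% for PTPRA and 68.7% for PTPRG. PTPRC was the one member with a RefSeq entry and no window above the median. PTPRA, PTPRE and PTPRM have several windows each, of which the richest in G and C is given. The motif was chosen after the values were seen. PTPRJ had no entry.

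PTPRF (LAR) and PTPRS (PTPσ) belong to the LAR subfamily, whose outer parts carry immunoglobulin-like and fibronectin domains and bind heparan sulfate proteoglycans and synaptic adhesion molecules. PTPRF (ENSG00000142949) spans 43525187 to 43623666 of chromosome 1 (GRCh38, forward strand). TMM-normalized, it had 3370, 3422 and 2770 counts in control replicates 1 to 3 and 4933, 4228 and 4697 in C3 replicates 1 to 3. Control replicate 3 was the lowest library, and the highest control library was below the lowest C3 library. The mean went from 3187 ± 362 to 4619 ± 359 (SD, n = 3), a log2 fold change of 0.53 (SE, the standard error, 0.075, edgeR adjusted p = 1.2e-05).

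PTPRS (ENSG00000105426) spans 5158495 to 5340812 of chromosome 19 (reverse strand). Its normalized counts were 3735, 3344 and 2998 in control libraries and 4819, 4534 and 4880 after C3 treatment. The order of the groups was as for PTPRF, and control replicate 3 was again the lowest library. The mean went from 3359 ± 369 to 4744 ± 185 (SD, n = 3), a log2 fold change of 0.50 (SE 0.070, edgeR adjusted p = 1.4e-05). Within libraries the log2 ratio of PTPRF to PTPRS counts was -0.076 ± 0.097 in control libraries and -0.041 ± 0.068 in C3 libraries (SD, n = 3), and the libraries overlapped. The exact two-sided permutation p-value of this ratio was 0.5, or 0.6 adjusted over the 6 ratios examined. With 3 libraries against 3 this test cannot go below 0.1. No other annotated gene lies on the exons of either, and PTPRS-AS1, on the other strand, had 0 counts.

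PTPRU, PTPRM and PTPRK belong, with PTPRT, to the subfamily with a MAM domain, an adhesion domain through which PTPRM and PTPRK bind copies of themselves on neighbouring cells. PTPRU (ENSG00000060656), at 29236516 to 29326813 of chromosome 1 (forward strand), had 1286, 1281 and 972 normalized counts in control and 2111, 1859 and 1939 in C3 libraries. Here too the groups were apart, and control replicate 3 was the lowest library. The mean went from 1179.7 ± 180 to 1969.7 ± 129 (SD, n = 3), a log2 fold change of 0.74 (SE 0.082, edgeR adjusted p = 4.6e-07). By p-value PTPRU ranked 64, PTPRF 170 and PTPRS 179 among the 15078 genes. By size of the rise their places were 693, 1265 and 1414. A stricter test, which asks whether the change itself exceeds 1.3-fold (edgeR's glmTreat, adjusted p below 0.01), kept PTPRU alone among the members.

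PTPRM (ENSG00000173482), at 7566782 to 8406861 of chromosome 18 (forward strand), had 228, 243 and 217 normalized counts in control and 299, 288 and 282 in C3 libraries. The libraries of the groups did not overlap, but the log2 fold change of 0.33 (SE 0.10) was under the fold gate, and the adjusted p-value was 0.023 in edgeR's test. It was the one further member past an adjusted p-value of 0.05, at which 4 of 10 members and 11.0% of all tested genes were higher. Scaling by library size alone brought PTPRM over both gates (log2 fold change 0.41, adjusted p = 0.0082), where the median of all genes moved to 0.076. ENSG00000263970 shares 1.02% of the PTPRM exon bases and had 0 counts.

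PTPRK (ENSG00000152894), at 127968785 to 128520616 of chromosome 6 (reverse strand), was near the lower end of what could be counted. It had 39, 26 and 16 raw counts in control libraries and 24, 35 and 54 after C3 treatment, and the groups overlapped. The 95% interval of its log2 fold change ran from -0.32 to 0.89, which includes both 0 and the value of PTPRU. An antisense gene, PTPRK-AS1, shares 1.94% of the PTPRK exon bases and had 0 counts in every library.

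PTPRC and PTPRJ act on Src family kinases of blood cells. PTPRC (ENSG00000081237), at 198638457 to 198757476 of chromosome 1 (forward strand), had 4194, 4074 and 4225 normalized counts in control and 3825, 4296 and 4229 in C3 libraries. C3 replicate 1 was the lowest library and C3 replicate 2 the highest, so the groups overlapped. The log2 fold change was -0.016 with a 95% interval of -0.15 to 0.11 at edgeR adjusted p = 0.90. As a fold change this interval ran from 0.904 to 1.08. The counts are per gene and do not separate the splice forms of CD45.

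PTPRJ (ENSG00000149177), at 47980425 to 48170839 of chromosome 11 (forward strand), had 722, 696 and 648 normalized counts in control and 736, 774 and 793 in C3 libraries. The C3 libraries lay above the control libraries by a margin smaller than the spread within either group. The log2 fold change was 0.16 (SE 0.073, 95% interval 0.0061 to 0.31), at edgeR adjusted p = 0.14. PTPRJ-AS1 shares no exon bases with PTPRJ and had 1 count in all. The log2 ratio of PTPRC to PTPRJ counts was 2.6 ± 0.092 in control libraries and 2.42 ± 0.048 in C3 libraries (SD, n = 3), with no overlap. Its exact two-sided permutation p-value was 0.1, the smallest possible here, and 0.3 after adjustment over the 6 ratios. The log2 ratio of PTPRF to PTPRC counts went from -0.39 ± 0.19 to 0.17 ± 0.20 (SD, n = 3), also without overlap and with exact permutation p-values of 0.1 and 0.3. The libraries of both groups overlapped for the ratios of PTPRA to PTPRE, PTPRK to PTPRM and PTPRK to PTPRU, whose adjusted exact permutation p-values were 0.45, 1 and 0.45. By library the ratio of PTPRF to PTPRC was -0.32, -0.25 and -0.61 in control libraries and 0.37, -0.023 and 0.15 after C3 treatment.

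**Figure D2:**
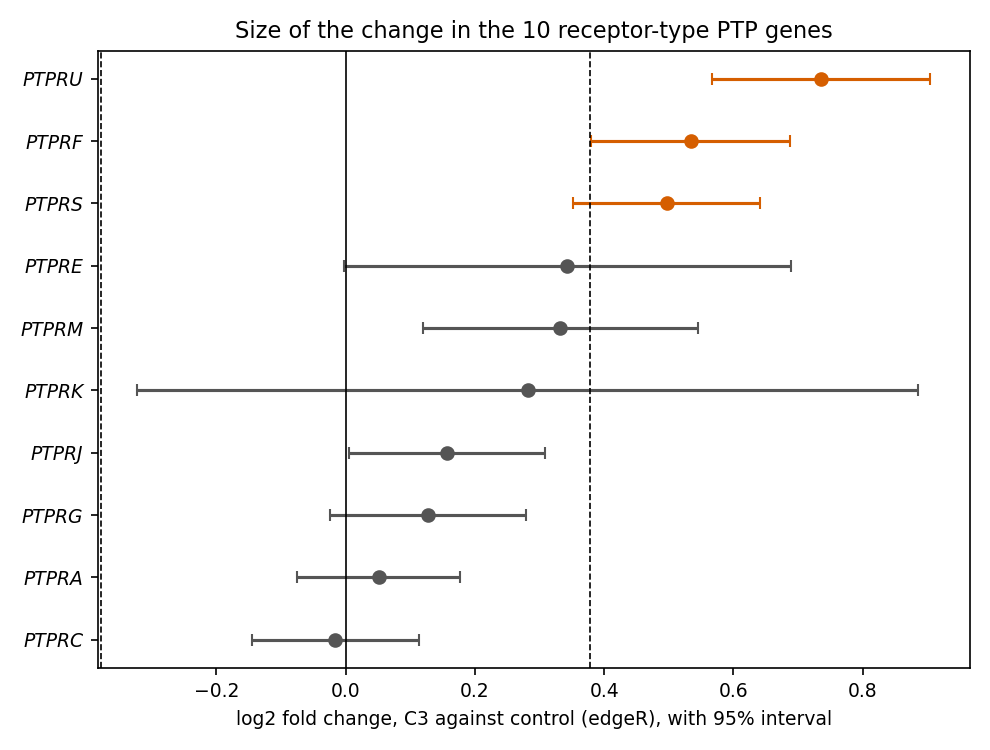
Log2 fold change of each member, C3 against control (horizontal axis), with its 95% interval from edgeR. Solid and dashed lines mark 0 and the gate of 1.3-fold in either direction, and orange marks the called genes. The intervals of PTPRU, PTPRF and PTPRS overlap each other, with the lowest bound at 0.35 (PTPRS), while those of PTPRC, PTPRA, PTPRE, PTPRK and PTPRG include 0.

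PTPRA and PTPRE have short outer parts and are close relatives. PTPRA, which activates SRC by removing its inhibitory phosphate, spans 2873420 to 3039076 of chromosome 20 (forward strand, ENSG00000132670). Its normalized counts were 1607, 1563 and 1612 in control libraries and 1638, 1650 and 1666 after C3 treatment. Its libraries varied least within the groups, and the C3 libraries lay just above the control libraries, with a log2 fold change of 0.051 (95% interval -0.075 to 0.18) at edgeR adjusted p = 0.61. PTPRE (ENSG00000132334), at 127907103 to 128085855 of chromosome 10 (forward strand), had 121, 69 and 105 raw counts in control libraries and 104, 149 and 177 after C3 treatment. Normalized, these were 73.2 to 125 in control libraries and 118 to 143 after C3 treatment, and the groups overlapped. The log2 fold change was 0.34 with a 95% interval of -0.0027 to 0.69 (edgeR adjusted p = 0.16), and it moved between 0.14 without control replicate 2 and 0.47 without control replicate 3.

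PTPRG carries a carbonic anhydrase-like domain that binds contactins. It spans 61561569 to 62297609 of chromosome 3 (forward strand, ENSG00000144724), with normalized counts of 788, 760 and 696 in control libraries and 774, 844 and 834 after C3 treatment. C3 replicate 1 fell among the control libraries. The log2 fold change was 0.13 (95% interval -0.024 to 0.28) at edgeR adjusted p = 0.24. PTPRG-AS1, on the other strand, shares 9.18% of the PTPRG exon bases and had 14 to 25 counts per library. Whether reads were counted by strand is not stated in the methods or labels, so those on the shared bases could come from either gene.

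**Figure D3:**
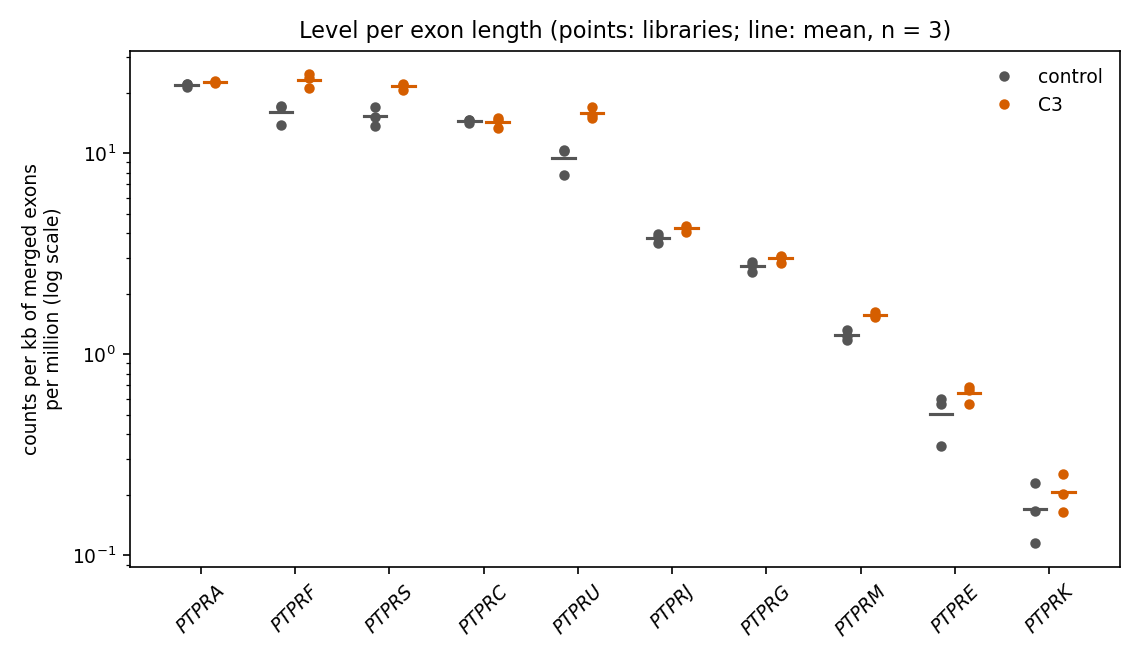
RPKM over merged exons (vertical axis, log scale) of the members, ordered by their mean in control cells. Points are libraries and lines are means of 3. PTPRA leads in control cells, and PTPRF, PTPRS and PTPRU move up after C3 treatment.

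Per length, 5 members stood above the others. In RPKM over merged exons, computed here from the counts, PTPRA was at 21.9 ± 0.37 in control cells, PTPRF at 16.0 ± 1.81, PTPRS at 15.3 ± 1.68, PTPRC at 14.5 ± 0.28 and PTPRU at 9.47 ± 1.44 (SD, n = 3). PTPRF and PTPRS overlapped each other, as did PTPRS and PTPRC, and the other neighbours in this order did not. PTPRJ followed at 3.79 ± 0.21, PTPRG at 2.74 ± 0.17 and PTPRM at 1.24 ± 0.069. PTPRE at 0.51 ± 0.14 and PTPRK at 0.17 ± 0.057 came last, and PTPRK was above 6.31% of all tested genes. After C3 treatment PTPRF was at 23.1 ± 1.80 and overlapped PTPRA at 22.6 ± 0.19, followed by PTPRS at 21.6 ± 0.84. PTPRU at 15.8 ± 1.04 then overlapped PTPRC at 14.3 ± 0.89. The order at the top depends on the length used, and by the longest coding sequence PTPRC ranked 1 and PTPRA 2 in control cells. The summed level of the 10 genes was 80.1 to 89.7 in control libraries and 104 to 109 in C3 libraries (exact two-sided permutation p = 0.1). Of that sum PTPRU took 11.0% ± 1.14 in control libraries and 14.8% ± 0.74 in C3 libraries (SD, n = 3), PTPRA 25.6% ± 1.70 and 21.1% ± 0.54, and PTPRC 17.0% ± 1.17 and 13.4% ± 1.06. The sum itself was higher in every C3 library, while the levels of PTPRA and PTPRC were not called different.

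Of the other 10 receptor-type PTP genes, 4 could be tested, with 1 called higher, against 5.05% of all tested genes, and 0 lower, against 1.47%. Their log2 fold changes were positive in 2 and negative in 2, with a median of -0.088, and at p below 0.05 before adjustment 1 was higher, against 16.8%, and 2 were lower, against 15.3%. PTPRH was higher after C3 treatment, from 36, 47 and 35 to 59, 65 and 115 raw counts, a log2 fold change of 0.81 (edgeR adjusted p = 0.0093). That call was lost in 6 of 13 alternatives, among them DESeq2 and limma-voom, and C3 replicate 3 was the highest library. PTPRN2 had 146, 157 and 124 raw counts in control libraries and 99, 121 and 154 after C3 treatment (log2 fold change -0.39, edgeR adjusted p = 0.047). Normalized, these were 143, 166 and 148 against 113, 116 and 121, with every C3 library below every control library. PTPRB, a phosphatase of endothelium, had 13 to 30 counts in control libraries and 11 to 16 after C3 treatment (log2 fold change -0.90, edgeR adjusted p = 0.097). Per length, PTPRN2 stood at 1.68 RPKM in control cells and PTPRH at 0.52, against 0.087 for PTPRB and 0.090 for PTPRD. PTPRD, the third gene of the LAR subfamily, had 11 to 29 and 21 to 26 counts. PTPRN and PTPRR had at most 7 counts, PTPRT at most 3, PTPRZ1 at most 2 and PTPRO at most 1 in any library. PTPRQ had 0 counts in all 6 libraries, which allows up to 3 counts or 0.027 CPM.

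Genes for several binding partners of the receptor-type PTPs rose after C3 treatment. Of 34 listed ligands and partners, 23 were tested. LGALS3, CNTN1, SLITRK2, IL1RAPL1 and PPFIA4 reached 10 counts in all libraries of the C3 group but not of the control group, so they owed the filter to that group and are left out of the counts here. Of the other 18, 6 were called higher, against 5.05% of all tested genes, and 0 lower, against 1.47%. Positive log2 fold changes were found in 16 of 18, against 7595 of all 15078 tested genes, and the median was 0.31. Before adjustment 12 were higher at p below 0.05, against 16.8% of all tested genes, and 1 was lower, against 15.3%, and DESeq2 and limma-voom called 0 lower. The lower gene was LRFN4, named after its value was seen, with every C3 library below every control library. Its log2 fold change of -0.28 (edgeR adjusted p = 0.0029) did not reach the fold gate. NID1 (nidogen-1), a basement membrane protein that binds LAR in complex with laminin, went from 40.4 ± 10.6 to 138 ± 22.5 normalized counts (SD, n = 3), or 1.75 on the log2 scale. THBS1, a ligand of PTPRJ, rose by 0.91 on the log2 scale and LGALS1 (galectin-1), which binds CD45, by 0.59. NTRK3 (TrkC), a partner of PTPRS, rose by 0.52, LRRC4B (NGL-3), a partner of the LAR subfamily, by 0.41, and AGRN (agrin), a heparan sulfate proteoglycan that binds PTPRS, by 0.40. The adjusted p-values of these 6 genes in edgeR's test were between 2.1e-09 and 4.2e-04. AGRN and LRRC4B lost their calls without control replicate 3 and without C3 replicate 1. AGRN ranked sixth by p-value and is named after its value was seen.

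**Figure D4:**
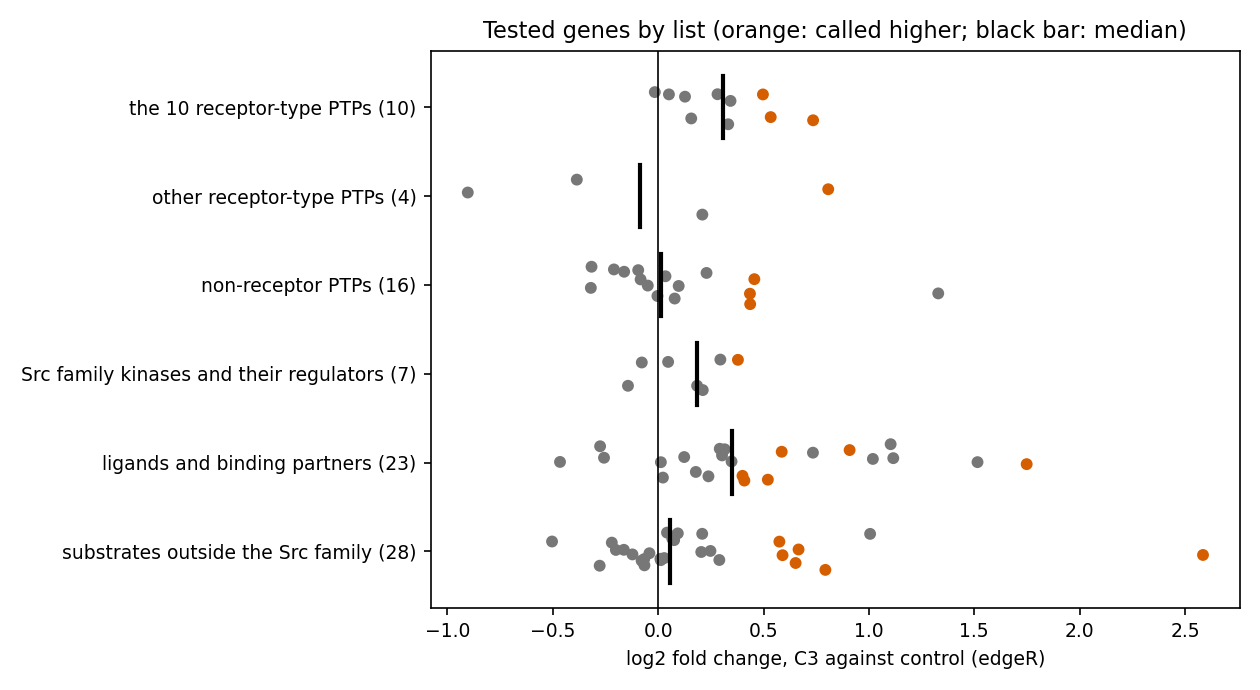
Log2 fold change, C3 against control (horizontal axis), of the tested genes of each list, whose number stands in brackets. Orange points are called higher, grey points are not called, and black bars are medians. The median of the 10 members is 0.31. That of all 23 tested ligands and binding partners is 0.35, or 0.31 without the 5 that owed the count filter to their C3 libraries. The points and bars also include CDH5, EGFR and PTPN21, which owed it to theirs. No gene of these lists is called lower.

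Src family kinases are substrates of PTPRC, PTPRJ and PTPRA. Of 11 listed genes of this family and its regulators 7 were tested, and SRC alone was called higher, or 1 of 7 against 5.05% of all tested genes, with normalized counts of 452 ± 35.5 in control libraries and 589 ± 32.8 in C3 libraries (SD, n = 3). The change of 0.38 on the log2 scale (edgeR adjusted p = 0.0020) stood just past the fold gate, and the call was lost in 6 of 13 alternatives, DESeq2 and limma-voom among them. YES1, FYN and LYN had log2 fold changes of 0.30, 0.18 and 0.047, with adjusted p-values of 0.0052, 0.037 and 0.66 from edgeR's test. LCK had at most 3 counts in any library. The median over the 7 genes was 0.18.

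Of 28 tested substrates outside the Src family, CDH5 and EGFR owed the count filter to their C3 libraries in the same way and are left out of the counts here. Of the other 26, 5 were called higher, against 5.05% of all tested genes, and 0 lower, against 1.47%, with a median log2 fold change of 0.035. Before adjustment 8 were higher at p below 0.05, against 16.8%, and 4 were lower, against 15.3%, and DESeq2 and limma-voom called 0 lower. KDR, the main VEGF receptor, rose by 0.65 on the log2 scale, JUP (plakoglobin), a catenin of cell junctions, by 0.59, and EPHA2, an ephrin receptor, by 0.67. EGFR, the receptor of epidermal growth factor, had 5, 4 and 2 raw counts in control libraries and 23, 24 and 30 in C3 libraries. The filter admitted it through the latter, which favours a rise but does not force one. MET, the receptor of hepatocyte growth factor, rose by 0.58 and EPHB2 by 0.79, the latter without a call in 4 of 13 alternatives. EPHB2 ranked sixth by p-value and is named after its value was seen.

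The non-receptor PTPs lie inside the cell, many of them in the cytosol. Of 16 tested, PTPN21 owed the count filter to its C3 libraries, and the other 15 had 7 positive and 8 negative log2 fold changes, with a median of -0.0033. PTPN12, PTPN13 and PTPN14 were called higher, or 3 of 15 against 5.05% of all tested genes, with log2 fold changes of 0.44, 0.44 and 0.46 and adjusted p-values between 2.1e-04 and 0.0016 in edgeR's test. PTPN12 (PTP-PEST) acts on focal adhesion proteins, and PTPN13 and PTPN14 carry FERM domains. Without control replicate 3 only 1 of these calls, that of PTPN12, was left, and PTPN12 lost its own call without control replicate 2. By edgeR, DESeq2 and limma-voom 0 genes of this list were called lower, against 1.47% of all tested genes by edgeR. At p below 0.05 before adjustment 3 of 15 were higher, against 16.8%, and 3 of 15 were lower, against 15.3%.

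Of 12 megakaryocyte markers 10 were tested, and the normalized count of ITGA2B, the integrin subunit that marks the lineage, was 12484 to 13256 in control and 11611 to 13336 in C3 libraries, while PF4 and GP1BB had 0 counts in every library. The summed normalized count of that list was 24811 to 26027 in control libraries and 22853 to 25211 in C3 libraries, and GP1BA and TUBB1 were called lower, the latter past the count filter through its control libraries (43, 39 and 32 raw counts against 8, 20 and 23). ITGB3 (CD61), named after its value was seen, had a log2 fold change of 0.34 (edgeR adjusted p = 0.0325) with every C3 library above every control library. NFE2 and PPBP, also not called, had every C3 library below every control library. Their log2 fold changes were -0.378 and -0.82 (edgeR adjusted p = 1.9e-04 and 0.18). PPBP owed the count filter to its control libraries (19, 13 and 16 raw counts against 10, 5 and 16). Of the T cell markers 3 of 5 were tested and of the B cell markers 2 of 4, with 0 calls each and MS4A1 at 0. Their sums were 117 to 149.5 against 127 to 133 for T cells and 64.7 to 79.3 against 64.3 to 88.8 for B cells. Of the monocyte markers 2 of 4 were tested and LYZ was lower, with summed counts of 689 to 718 against 528 to 547 and FCGR3A at 0. LYZ made up most of these sums (means of 613 in control and 430 in C3 libraries). CSF1R, not called, had a log2 fold change of 0.26 (edgeR adjusted p = 0.28). Of the fibroblast markers 4 of 5 were tested, LUM was lower and COL1A1 was called higher, with 6, 5 and 2 raw counts against 12, 11 and 34, so that only its C3 libraries took it past the count filter. The list had sums of 684 to 843 against 493 to 527, most of them LUM (means of 709 in control and 449 in C3 libraries). DCN and COL3A1, not called, had log2 fold changes of 0.83 and 0.32 (edgeR adjusted p = 0.17 and 0.55), and DCN owed the count filter to its C3 libraries. All 4 endothelial markers were tested and TEK was higher, with sums of 950.5 to 1106 against 1039 to 1214. PECAM1 made up most of these sums and had a log2 fold change of -0.072. VWF and CDH5, also not called, had log2 fold changes of -0.74 and 1.01 (edgeR adjusted p = 0.063 and 0.0315), and CDH5 owed the count filter to its C3 libraries. PECAM1 and VWF are also made by megakaryocytes. The epithelial list had 3 of 4 and the erythroid list 4 of 6 genes tested, with 0 calls each. The sums were 2232 to 2526 against 1944 to 2165 for the epithelial list and 286 to 295 against 269 to 352 for the erythroid list. The part of these shifts in the values above was not tested.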

How the data were processed

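RNAseq libraries of Meg-01 cells (3 control, 3 C3) were analysed. The submitters' processing notes name fastp, STAR (2.6.1d), featureCounts (1.5.0-p3) and the build GRCh38/hg38. Raw counts per gene were deposited, not normalized by the authors. Sources used here do not state the annotation release or strand setting. Columns were matched to samples by name and replicate number.

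The whole table was tested, after keeping genes that reached 10 counts in 3 or more libraries, with edgeR (4.0.16, R 4.3.3), with TMM factors, the quasi-likelihood test and Benjamini-Hochberg adjustment over 15078 genes. The gates for a call (adjusted p 0.01, fold 1.3) are those the study set for its differentially expressed genes. Counts were normalized by library size times TMM factor, rescaled to the mean over libraries. The standard error of a log2 fold change is its size over the square root of F, and 95% intervals use the test's degrees of freedom. Ratios and single values had exact permutation tests over 20 splits. Intervals cover counting and library spread only.

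The members, lists and motifs were chosen with earlier results of these data known. All members are named, as are the called genes of the other lists (the 5 with the smallest p in each, except where marked), the other receptor-type PTPs, SRC, FYN, LYN, YES1 and LCK, and antisense or overlapping genes. Symbols, coordinates and exon lengths come from GENCODE release 44 on GRCh38 (58207 of 58735 identifiers) and promoters from RefSeq. Alternatives were RLE factors, library size alone, DESeq2 (1.42.0), limma-voom (limma 3.58.1), other count filters, a replicate block, each library left out, and other gates. The fits were also run on simulated data, from which no value is given here.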

Additional observations from a re-analysis of the deposited data

How the results depend on the processing

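Of 129 log2 fold changes of the members under 13 alternatives (other scaling, tests, count filters, the replicate block, each library left out), 125 changed neither sign nor call. PTPRU stayed between 0.62 and 0.81, PTPRF between 0.44 and 0.61 and PTPRS between 0.42 and 0.59, each called every time. PTPRC, not called in any, changed sign to 0.059 with library size alone, 0.0025 without control replicate 1 and 0.036 without C3 replicate 1. Its leave-one-out range was -0.044 to 0.036. Library size alone moved the median of all genes from 0.0021 to 0.076, so the sign change there shows nothing particular to PTPRC. PTPRM gained a call with library size alone. With the replicate number as a block, 3 members were called and the median was 0.31. Same-numbered libraries deviated from their group means with correlations of only -0.047 to 0.030, so the numbers do not pair them, and no member's call changed.

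The test of a fold above 1.3 left 1 member called higher. Over all genes it left 182 calls (169 higher, 13 lower), an adjusted p-value below 0.05 at any fold gave 2981 (1658 and 1323) and one below 0.01 gave 1594 (612 lower), by construction of the gates. Library size alone gave 101 lower genes. With each library left out, 645 to 1106 genes were called, 129 to 340 of them lower. Leaving out C3 replicate 3 gave the lowest counts, and leaving out C3 replicate 1 the highest. The cause was not tested. Of 17 called genes of the other lists, 9 kept their call in every alternative that could test them. Both numbers include EGFR, which 8 alternatives could test. The count filter admitted EGFR through its C3 libraries, which favours a rise, without forcing one, wherever that filter was used. PTPRK and PTPRE had the fewest counts of the members, and the part of depth in their wide intervals was not tested.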
